A study of Mus musculus with 2 samples.

Results

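Hedgehog ligands, their receptors and the GLI transcription factors were examined in mouse ureters labelled as conditional Gata6 mutants and in control ureters. The group comprised 9 genes, chosen by name among the non-control probes of the array: the ligands Shh, Ihh and Dhh, the receptor Ptch1, the signal transducer Smo, the transcription factors Gli1, Gli2 and Gli3, and the ligand-binding inhibitor Hhip. All 9 were represented, by 13 of the 39429 probes, and all 9 were among the 19801 genes tested.

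Hedgehog ligands are secreted, lipid-modified proteins. Binding of a ligand to PTCH1 lifts the block that PTCH1 places on SMO, and active SMO turns the GLI proteins towards activation of their target genes, among them Ptch1, Gli1 and Hhip themselves, whose levels are therefore widely used as readouts of the pathway. In the developing ureter, the epithelium makes SHH and the surrounding mesenchyme, which forms the smooth muscle and fibroblast layers, receives it.

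Total RNA was taken from ureters of NMRI embryos at E14.5. The mutants, called Gata6cKO, had the genotype Tbx18(cre/+);Gata6(fl/fl), in which a cre recombinase in the Tbx18 locus deletes floxed Gata6, a zinc finger transcription factor gene, in cells that have expressed Tbx18, that is, mainly in the mesenchyme. The controls were Gata6(fl/?), that is, 1 or 2 floxed copies without cre per the labels, so cre, the single intact Tbx18 copy and the deletion of Gata6 cannot be told apart. Of the 4 RNAs, a male mutant (Cy5) and a male control (Cy3) shared 1 array, and a female mutant (Cy3) and a female control (Cy5) shared the other, so that sex, dye orientation and array cannot be told apart either. Pooling of embryos and shared litters are not stated. The p-values come from these samples alone. With 1 residual against 11.9 prior degrees of freedom, they rest mostly on a spread pooled over all genes tested.

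In the 4 channels 67.2% to 68.5% of spots exceeded background, and the number of arrays limits the precision. The Gata6 probe read higher in the RNAs labelled Gata6cKO and passed the test, at a log2 ratio of 0.65 ± 0.12 (moderated SE, n = 2 arrays; limma adjusted p = 0.00612), with 0.85 for the male pair and 0.46 for the female pair. Whether this probe lies in the deleted part was not analysed here. The loss of Gata6 was therefore not shown by these arrays, and every direction below rests on the labels, by which an RNA is called mutant or control. Urothelial markers were measured throughout (18 of 18), as were 10 of 10 smooth muscle genes. Neuronal markers were measured too (8 of 8).

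Among the 9 members, the ligand genes Ihh and Dhh changed, in opposite directions, and the other 7 did not pass the test. Ihh was 2.53-fold lower and Dhh 1.73-fold higher in Gata6cKO ureters. Of all genes tested with limma, 4.55% passed at an adjusted p under 0.05 (2.35% lower and 2.20% higher), against 2 of the 9 members (1 lower and 1 higher). The median log2 ratio was 0.02 over the members and -0.00 over all genes.

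The promoters of the 2 ligand genes that changed are shown to set their composition side by side. Each window runs over 300 bases, from upstream of the annotated start to just past it, 5′ to 3′ on the gene's strand, from RefSeq on GRCm38.p6, and capitals mark CG dinucleotides.
Ihh, chr1:74951623-74951922, minus strand: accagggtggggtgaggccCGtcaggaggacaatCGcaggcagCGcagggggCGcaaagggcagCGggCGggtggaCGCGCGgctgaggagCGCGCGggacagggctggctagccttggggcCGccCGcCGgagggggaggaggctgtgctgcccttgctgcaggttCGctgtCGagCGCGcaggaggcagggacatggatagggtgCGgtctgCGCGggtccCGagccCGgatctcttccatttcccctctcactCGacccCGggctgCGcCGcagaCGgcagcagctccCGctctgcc
Dhh, chr15:98898491-98898790, minus strand: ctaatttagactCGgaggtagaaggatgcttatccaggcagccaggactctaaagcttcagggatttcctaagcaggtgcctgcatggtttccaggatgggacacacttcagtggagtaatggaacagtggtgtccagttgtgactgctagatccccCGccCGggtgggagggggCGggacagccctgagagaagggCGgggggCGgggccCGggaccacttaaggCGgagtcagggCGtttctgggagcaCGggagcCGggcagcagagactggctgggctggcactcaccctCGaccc
The Ihh window held 30 CG dinucleotides and 72.7% G or C, and the Dhh window 12 and 61.7%, against medians of 7 and 52.7% over 32851 promoter windows. Among members that did not pass, Ptch1 held 47 and 76.3%, Gli3 39 and 71.0%, and Hhip 30 and 73.7%. Gli2 held 28 and 67.3%, and Smo 17 and 67.7%. A CG-rich window was thus not particular to the ligand genes that changed. RefSeq windows were matched for 7 of the 9 members. The GLI motif GACCACCCA, searched on both strands, was in none of the 7 windows and in 0.253% of all windows. The GATA words AGATAA and AGATAG as well as TGATAA and TGATAG, searched likewise, were in none of the 7 and in 29.8% of all. A missing match says only that these letters are not in these windows.

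Ihh, Indian hedgehog, is the ligand best known from growth cartilage and gut epithelium. Its probe, designed on NM_010544, lies on chromosome 1 at 74991906 to 74991965 of mm9 (minus strand). The normalised intensity, a brightness in arbitrary units, was 3022 in the male control and 2004 in the female control, and 1030.3 and 916 in the male and the female mutant. Both mutant RNAs lay below both control RNAs. The log2 ratio of mutant over control was -1.34 ± 0.12 (moderated SE, n = 2 arrays; limma adjusted p = 3.05e-05), with a 95% interval of 2.10-fold to 3.05-fold lower. The male pair gave -1.55 and the female pair -1.13. The repeat spots of the probe ran from -1.64 to -1.49 on the male array and from -1.22 to -1.08 on the female array, so the arrays differed by more than their spots did. Ihh fell at least 2-fold on both arrays, which 0.399% of all genes did in either direction, and no other member did.

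Dhh, desert hedgehog, is the ligand of Schwann cells, endothelium and the Sertoli cells of the testis. Its probe, designed on NM_007857, lies on chromosome 15 at 98723465 to 98723524 of mm9 (minus strand). The normalised intensity was 299 and 207 in the male and the female control, and 522 and 358 in the male and the female mutant. Both mutants lay above both controls, and all 4 spots of the probe were well above background in every RNA. Mutant over control gave 0.79 ± 0.11 on the log2 scale (n = 2 arrays; limma adjusted p = 6.70e-04), with a 95% interval of 1.47-fold to 2.05-fold higher. The male pair gave 0.80 and the female pair 0.79. The repeat spots ran from 0.77 to 0.83 and from 0.66 to 0.88. The call was lost with median centring (adjusted p = 0.0710) and with separate channels (adjusted p = 0.149), at a log2 ratio of 0.82 and 0.79, over a range of adjusted p from 1.92e-08 to 0.149 across all settings.

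Shh, sonic hedgehog, the ligand that the ureteric epithelium makes, did not pass. Its probe (NM_009170) lies on chromosome 5 at 28783983 to 28784042 of mm9 (minus strand). The normalised intensity was 279 and 310.0 in the controls and 310.4 and 302 in the mutants, male before female. The genotypes overlapped, and the log2 ratio of 0.06 ± 0.11 (n = 2 arrays) had a 95% interval from 1.14-fold lower to 1.23-fold higher. A change of the size measured for Ihh or Dhh lies outside that interval. The Shh probe read about as dim as that of Dhh, and the offset used in processing draws ratios of dim probes towards 0. With Agilent's processed signals, Shh stood at 0.08.

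**Figure D1:**
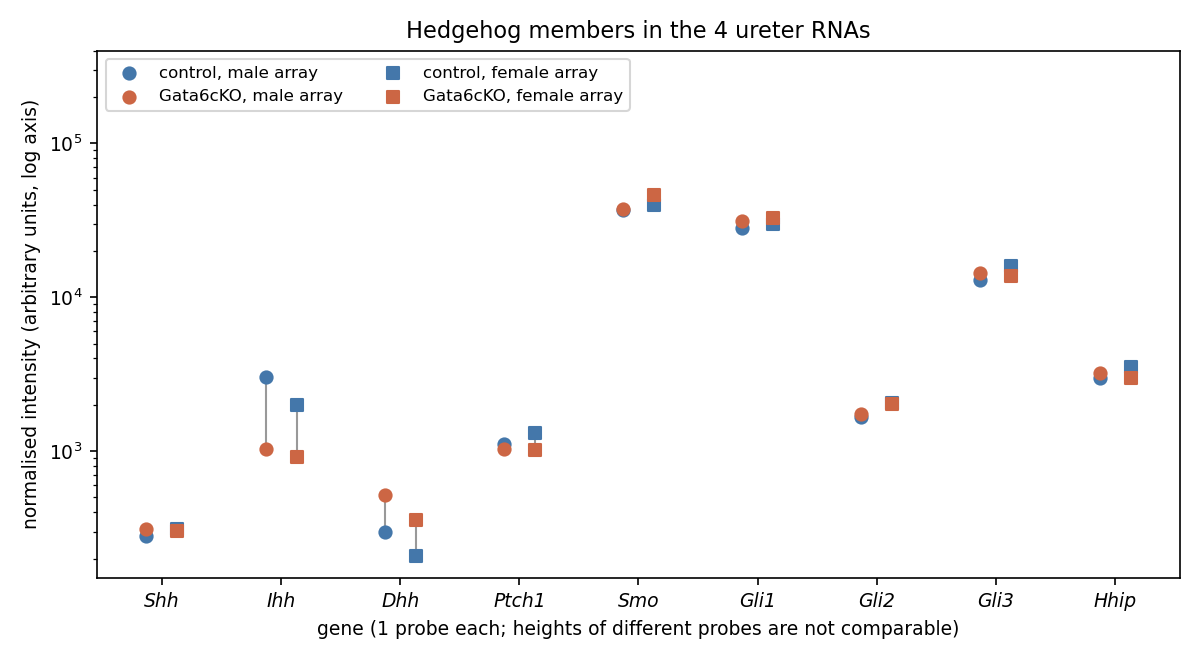
Normalised intensity (log axis, arbitrary units) of the 9 Hedgehog genes in each RNA, with circles for the male array, squares for the female array, blue for control and orange for Gata6cKO; lines join the 2 RNAs of an array. Ihh lies lower in both mutants (1030.3 and 916 against 3022 and 2004) and Dhh higher (522 and 358 against 299 and 207), and heights of different genes cannot be compared.

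The receptors and the inhibitor were measured with 2 probes each. Ptch1, the receptor that is also a pathway target, read 1114 and 1312 in the controls and 1033 and 1017 in the mutants at its brighter probe (ENSMUST00000194663; chromosome 13, 63610298 to 63610357, mm9). Both mutants lay just below both controls. Its log2 ratio, -0.24 ± 0.12 (n = 2 arrays), did not pass (limma adjusted p = 0.498). The male pair gave -0.11 and the female pair -0.37, and the 95% interval ran from 1.40-fold lower to 1.01-fold higher. The other Ptch1 probe (NM_008957), 2581 bases away on the same strand, gave -0.16, with -0.04 and -0.29 on the arrays. There the genotypes overlapped, at 380 and 534 in the controls and 369 and 438 in the mutants. The probes thus had the same sign and the same order of arrays, and neither passed.

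Smo, the transducer that PTCH1 holds in check, read 36764 and 39725.5 in the controls and 37182 and 46178 in the mutants (NM_176996; chromosome 6, 29711225 to 29711284, mm9). The genotypes overlapped. The log2 ratio was 0.12 ± 0.11 (n = 2 arrays), with a 95% interval from 1.09-fold lower to 1.29-fold higher. The other Smo probe, 306 bases away, gave 0.42 for the male pair and -0.35 for the female pair, so its Cy5 signal was the higher one on both arrays after normalisation, and its mean was 0.04. Of its 60 bases, 48 are A or C, with a CA repeat of 13 bases, while the other 12 probes of the group have at most 35 such bases. Whether this composition has a part in the gap between the arrays was not tested.

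Hhip, the membrane protein that binds ligands and keeps them from PTCH1, read 2980.3 and 3510.3 in the controls and 3222 and 2984 in the mutants (NM_020259; chromosome 8, 82494280 to 82494339, mm9). The genotypes overlapped, and the arrays had opposite signs, 0.11 for the male pair and -0.23 for the female pair. The log2 ratio was -0.06 ± 0.12 (n = 2 arrays), with a 95% interval from 1.25-fold lower to 1.15-fold higher. The other Hhip probe, 3551 bases away, gave -0.03 and -0.26.

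Gli1, the GLI factor that is itself switched on by Hedgehog signals, read 28032 and 30122 in the controls and 31118 and 32679.5 in the mutants (NM_010296; chromosome 10, 126766967 to 126767026, mm9). Both mutants lay just above both controls. The log2 ratio was 0.13 ± 0.11 (n = 2 arrays), with 0.15 and 0.12 on the arrays, and did not pass, with a 95% interval from 1.07-fold lower to 1.29-fold higher. Another Gli1 probe, designed on the clone sequence AK157048 and 8054 bases away, did not meet the rule for signal and was not tested. Ptch1 and Gli1, both targets of the pathway, therefore had opposite signs, each within an interval that includes no change.

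Gli2, the main GLI activator, read 1676 and 2041 in the controls and 1747 and 2019 in the mutants (NM_001081125; chromosome 1, 120731255 to 120731314, mm9). The mutant values lay between the control values. Its log2 ratio was 0.02 ± 0.11 (n = 2 arrays), with a 95% interval from 1.16-fold lower to 1.20-fold higher. Gli3, which in the absence of ligand acts mainly as a repressor, read 12889 and 15902 in the controls and 14310.1 and 13647.5 in the mutants (NM_008130; chromosome 13, 15821502 to 15821561, mm9). Its log2 ratio was -0.03 ± 0.12 (n = 2 arrays), 0.15 for the male pair and -0.22 for the female pair, with a 95% interval from 1.23-fold lower to 1.17-fold higher. For both genes the genotypes overlapped. The limma adjusted p was 1.00 for Shh, Smo, Gli1, Gli2, Gli3 and Hhip alike.

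**Figure D2:**
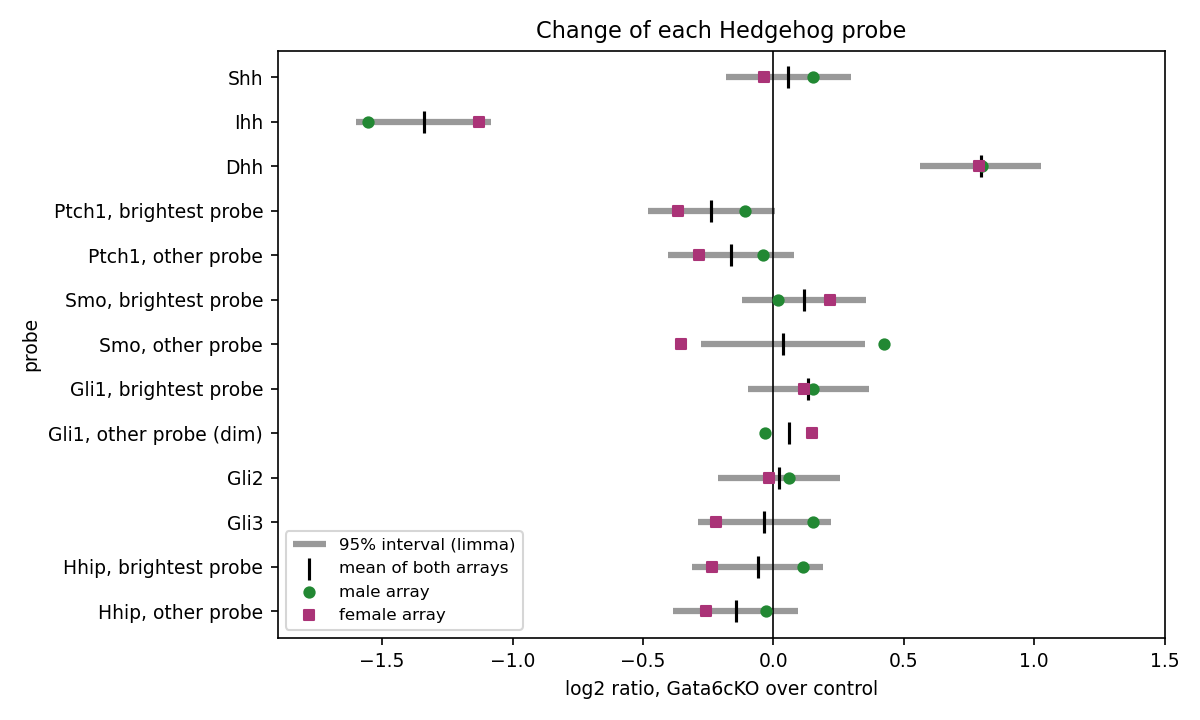
Log2 ratio of Gata6cKO over control for each of the 13 Hedgehog probes: green circles for the male array, purple squares for the female array, black ticks for their mean and grey bars for 95% intervals from a limma fit over the 26200 probes with signal (none for the dim Gli1 probe). Among the 12 probes with bars, those of Ihh and Dhh are the ones that do not cross 0, and the other Smo probe has the widest gap between arrays, 0.42 against -0.35.

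**Figure D3:**
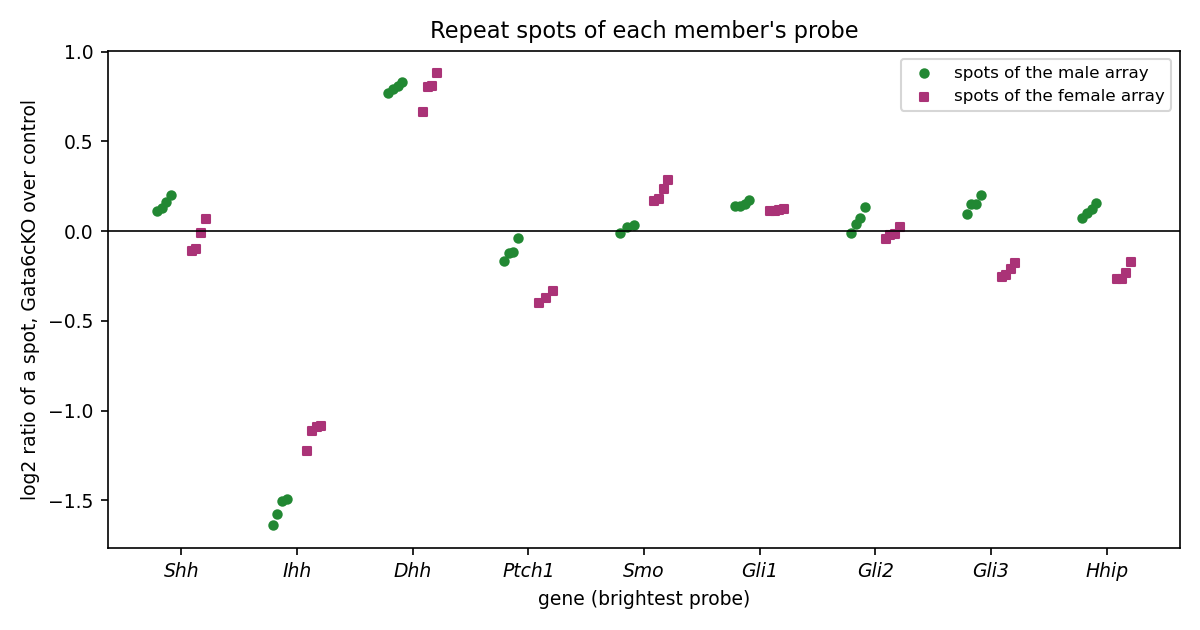
Log2 ratio of each repeat spot not marked as an outlier, for the probe that stands for each gene; green circles are spots of the male array and purple squares spots of the female array. The spots of Ihh lie between -1.64 and -1.08, those of Dhh between 0.66 and 0.88, and those of Gli3 lie above 0 on the male array (0.10 to 0.20) and below it on the female array (-0.25 to -0.17).

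Across the members, 5 of 9 had the same sign on both arrays, against 48.8% of all genes. At the probe that stands for each gene, the levels of the 2 genotypes did not overlap for 4 of 9 (Ihh, Dhh, Ptch1 and Gli1), against 33.4% of all genes. At the other Ptch1 probe they overlapped. Without Ihh and Dhh the log2 ratios ran from -0.24 for Ptch1 to 0.13 for Gli1. For comparison, the smallest size at which any gene passed was 0.42 in either direction.

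**Figure D4:**
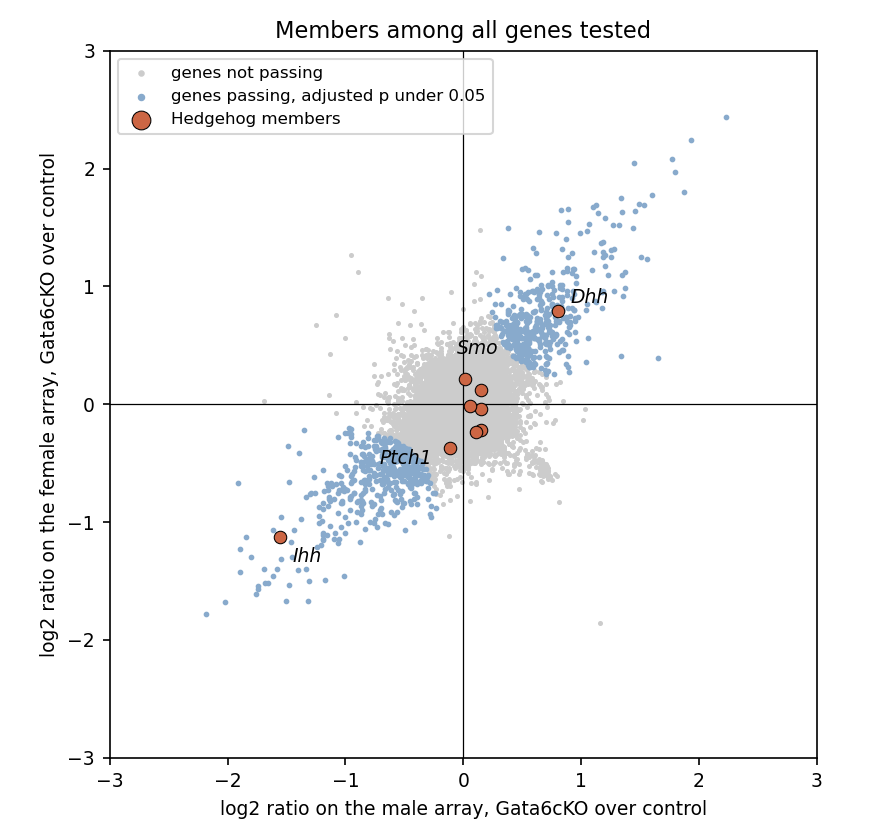
Log2 ratio on the male array (x axis) against the female array (y axis) for each of the 19801 genes tested; grey points did not pass, blue points passed at an adjusted p under 0.05, and orange points are the 9 Hedgehog genes, with 4 of them named. Ihh (-1.55 and -1.13) and Dhh (0.80 and 0.79) lie among the genes that passed, and the other 7 lie in the central cloud.

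Of 31 other Hedgehog genes listed, 30 were measured, 1 rose, none fell and 29 did not pass, with a median log2 ratio of 0.09 against -0.00 over all genes. At an unadjusted p under 0.05 there were 9 of 30, against 11.4% of all genes tested. With no background correction, normexp offset 10, the median of spots or an intensity trend in the prior, 5 of the 30 passed. Over all 19801 genes, 1109, 1226, 1082 and 1176 passed under these settings, in that order, against 901 in the main fit. The gene that rose was Cdon, a co-receptor that binds ligands together with PTCH1, at 0.47 ± 0.11 (n = 2 arrays; limma adjusted p = 0.0260), but its other probe gave 0.30. With median centring, no filter on dim probes, the mean of its probes or separate channels, Cdon did not pass, at an adjusted p of 1.00, 0.0623, 0.0550 and 0.0844.

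Among the 5 co-receptors and surface binders, Gas1, another co-receptor, had a log2 ratio of 0.42 ± 0.11 (adjusted p = 0.0510), and its other probes gave 0.19 and 0.15. Boc, the relative of Cdon, stood at 0.16. Of the 6 genes of ligand processing and release none passed limma (3 at an unadjusted p under 0.05), with Disp2, a relative of the ligand-releasing protein DISP1, at 0.40 and Scube3, a secreted carrier of ligands, at 0.37 (0.16 and 0.15 at its other probes). The third, Scube2, a relative of Scube3 named after its value was seen, had the opposite sign, at -0.33 (-0.15 at its other probe). Disp2 stood at 0.79 with Agilent's processed signals (adjusted p = 7.88e-04) and with the deposited series values (adjusted p = 1.62e-05), and it passed under 6 of 11 alternative settings, over a range of adjusted p from 1.62e-05 to 1.00. The deposited values closely follow the processed signals, so these readings are not separate measurements. The Disp2 probe was also dim, at 143 and 127 in the male and the female control and 192 and 164 in the male and the female mutant. Of 11 measured genes of signal transduction and GLI processing none passed (0 at an unadjusted p under 0.05). At the brightest probe of each gene, their log2 ratios ran from -0.09 to 0.15. Sufu, the inhibitor that holds GLI proteins in the cytoplasm, stood at 0.08. Other probes of these genes spread more widely, from -0.38 for Spop to 0.29 for Btrc, with -0.26 for Evc2. Spop and Evc2, named after their values were seen, stood at 0.10 and 0.01 at their brightest probes. Btrc, part of the complex that marks GLI proteins for processing, stood at 0.15 (0.29 at its other probe) and Kif7, the kinesin of the ciliary tip, at 0.11. Of 11 genes of the primary cilium, the organelle in which vertebrate Hedgehog signals are handled, none passed limma either (0 at an unadjusted p under 0.05), with a median of 0.07.

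Among 8 mesenchymal genes that Hedgehog signals are known to induce, none passed limma (4 at an unadjusted p under 0.05), and their signs were mixed. Foxf1, a forkhead factor of the mesenchyme around Hedgehog-producing epithelia, stood at -0.42 ± 0.12 (adjusted p = 0.0786), with -0.24 for the male pair and -0.59 for the female pair. Mycn, a growth regulator, stood at 0.48 ± 0.14 (adjusted p = 0.0816), with 0.79 and 0.17. Bmp4, the growth factor that acts beside SHH in smooth muscle formation, stood at 0.28 ± 0.11 (adjusted p = 0.277). With no background correction Foxf1 and Mycn passed, at an adjusted p of 0.0491 and 0.0330, as did Gas1 and Disp2, at 0.0364 and 0.0193.

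Markers of several cell types moved on the same arrays. In bulk RNA, fewer cells of a type and less RNA per cell cannot be told apart. Of 18 urothelial markers 11 fell and none rose, with a median of -0.57; their summed normalised intensity was 290367 and 273315 in the controls and 220538 and 200982 in the mutants. The uroplakin genes Upk1b and Upk1a, whose proteins coat the apical surface, had log2 ratios of -1.98 and -1.54 and both passed. The part of these differences in the fall of Ihh was not tested. Of other tissues that express Ihh, 3 of 6 cartilage markers were measured and none passed limma (1 at an unadjusted p under 0.05), and 4 of 5 markers of gut epithelium, Cdx1, Cdx2, Vil1 and Tff3, did not meet the rule for signal. The exception, Lgr5, rose by 0.58.

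Of 7 measured Schwann cell and glial markers 2 rose, Sox10 by 0.46 and Foxd3 by 0.45, both transcription factors of neural crest cells, and 5 did not pass. The list median was 0.19, and the summed normalised intensity of the list overlapped between genotypes, at 87316.5 and 79130.1 in the controls and 82712 and 91976 in the mutants. Neuronal markers rose in 8 of 8 cases, with a median of 1.34 and a summed normalised intensity of 12270 and 10215 in the controls against 26533 and 25479 in the mutants. Of 6 endothelial markers none rose and 1 fell, with a median of -0.01. Of 6 markers of testis somatic cells, Amh, Sox8 and Hsd3b1 did not meet the rule for signal, and the 2 measured, Cyp11a1 and Star, stood at 0.10 and -0.01. The part of the glial and neuronal differences in the rise of Dhh was not tested.

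**Figure D5:**
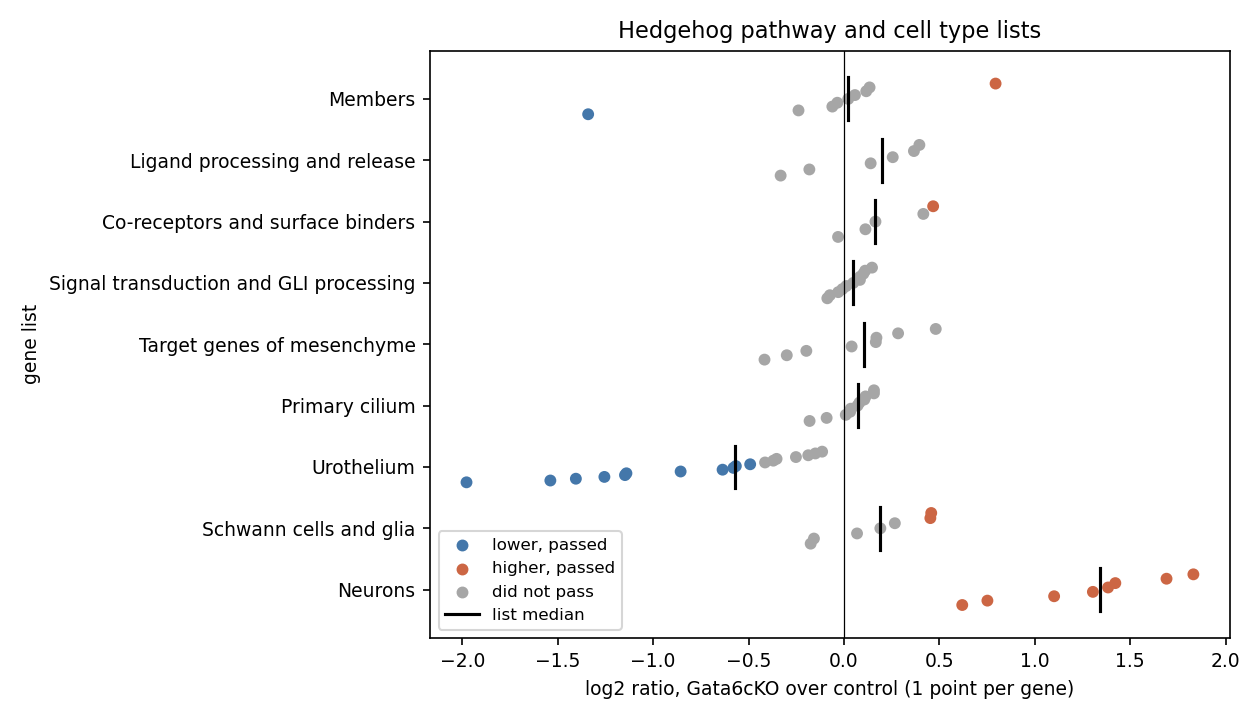
Log2 ratio of Gata6cKO over control for the members, the other Hedgehog gene lists, the primary cilium and 3 cell type lists, with 1 point per gene (blue lower and passed, orange higher and passed, grey did not pass) and a black tick at each list's median. Beside Ihh and Dhh among the members, Cdon is the only other Hedgehog gene that passed in this fit, while urothelial markers have a median of -0.57 and neuronal markers one of 1.34.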

How the data were processed

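Ureter RNA (150 ng per RNA, per the labels) was hybridised to 2 two-colour Agilent arrays, on 1 slide per the file headers. The authors' scanner files hold, per the file headers, raw mean and local background intensity per spot and a processed intensity with its log10 ratio of Cy5 over Cy3, from Agilent Feature Extraction 10.7.3.1 (per the submitters' processing notes). The deposited series values are a score per probe, found by comparison with the processed signals to be a signed fold of Gata6cKO over control (Pearson r of 0.985 and 0.980 on the log2 scale, across 26200 probes). There were 0 unused per-sample columns.

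Raw intensities were corrected with normexp (offset 50) and loess in limma 3.58.1 (R 4.3.3, statmod 1.5.0), with control and outlier spots at weight 0. The other spots of a probe were averaged. Probes needed 3 or more of 4 spots well above background, in the same genotype on both arrays (26200 of 39429 met this), and the brightest kept probe stood for a gene. Its log2 ratio of Gata6cKO over control, turned on the dye-swapped array, was fitted with lmFit and eBayes (1 residual and 11.9 prior degrees of freedom), adjusted by Benjamini-Hochberg over 19801 genes at 0.05. Per-RNA intensities came from the same ratios after Aquantile scaling between arrays. The offset draws ratios of dim probes such as those of Dhh and Shh towards 0.

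In simulated data over 19801 genes for this comparison, 77.6% of genes changed 1.5-fold and all of those changed 2-fold were recovered, with 12 false calls. The simulated ratios were drawn per gene from the prior spread that the fit itself assumes, without spots, dyes, background or normalisation. The recovery therefore describes the fit under its own assumptions and may be lower in the real arrays. Symbols followed RefSeq names on GRCm38.p6, and probe positions are the files' own on mm9. Whether a probe lies in an exon, an intron or a UTR was not analysed here. The members and lists were chosen with earlier results of these data known. Named genes were the members, Hedgehog list genes that passed, the 2 with the smallest p per list, and Cdon, Boc, Gas1, Sufu, Foxf1 and Bmp4; other named markers follow the cell type lists. Some items that these rules cover are not reported here. Lists were described by counts and medians. Of the lists fixed for checks, smooth muscle (1 of 10 rose, 4 fell), mesenchyme (1 of 8 rose), skeletal muscle (2 of 6 rose), nephron (3 of 6 rose), macrophage (none of 5; 1 at an unadjusted p under 0.05) and erythroid genes (2 of 6 fell) were not set beside a member.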

Additional observations from a re-analysis of the deposited data

Results flagged for a closer look

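Of the 9 genes, 4 had opposite signs on the male and the female array. All 4 were higher in the mutant on the male array, where the mutant RNA carried Cy5, and lower on the female array, where the control RNA carried Cy5, so the Cy5 signal was the higher one on both. The log2 ratio of Shh was 0.15 (male array) and -0.04 (female array), that of Gli2 0.06 and -0.02, that of Gli3 0.15 and -0.22, and that of Hhip 0.11 and -0.23. Sex, dye and array cannot be told apart, the difference was not tested, and 48.8% of all genes tested had the same sign on both arrays. The repeat spots of Shh, Gli3 and the brighter Hhip probe did not overlap between the arrays, and those of Gli2 did.

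The Gli1 probe on the clone sequence AK157048 (chromosome 10, 126775021 to 126775080, mm9), which entered no comparison, had 4 of 4 spots well above background in the female mutant, against 1 of 4 in each of the other RNAs. Its normalised intensity was 119 there, 110.3 in the male mutant, and 113 and 107.2 in the male and the female control.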

How the results depend on the processing

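The fall of Ihh passed under every setting tried with a test, with a log2 ratio from -1.55 to -1.13, single arrays included, and an adjusted p of at most 0.0154. Dhh was called under 9 of 11 such settings, and 1 member was called in place of 2 with median centring (Dhh at 0.82, adjusted p = 0.0710) and with separate channels (0.79, adjusted p = 0.149). Gli2 turned to -0.01 with median centring. No other member was called under any of them, and for Ptch1 the adjusted p was 0.438 at least. Of the other Hedgehog genes 5 passed, in place of 1, with no background correction, normexp offset 10, the median of spots or an intensity trend in the prior, 3 with the deposited series values and 2 with Agilent's processed signals. None passed in limma with median centring, no filter on dim probes, the mean of a gene's probes or separate channels (0, 8, 10 and 7 at an unadjusted p under 0.05). Over all genes 191 passed with median centring, 477 with no filter, 1467 with the deposited values and 547 with separate channels, in place of 901. The cause was not tested, except that no filter tests 29875 genes. Leaving out replicate 1 or 2 gives values with no test, from -0.37 to -0.11 for Ptch1 and from 0.79 to 0.80 for Dhh. The slide as a block was not run, since both arrays share 1 slide. Signal over background limits the size of dim changes: Dhh stood at 0.92 with normexp offset 10 and at 1.06 with Agilent's processed signals.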

Other observations

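The protein-coding genes that flank the 2 ligand genes on the chromosome, by their order in RefSeq, were looked up after the values were seen. Beside Dhh, the small GTPase gene Rhebl1 had a log2 ratio of -0.04 and the membrane receptor gene Lmbr1l one of -0.03, and the next ones, Kmt2d and Tuba1b, stood at 0.13 and 0.01. Beside Ihh, Nhej1, a DNA end-joining factor, stood at -0.00, Slc23a3 at 0.08 and Cnppd1 at 0.10, while Cfap65 and Cryba2 were not tested and Fev stood at -0.09. None of the 10 measured neighbours within 3 genes passed limma (0 at an unadjusted p under 0.05), against 4.55% (11.4%) of all genes tested. With so few genes, none passing is near those shares.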
